A study of Mus musculus with 64 samples.

Results

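The genes described here are 8 enzymes of cholesterol synthesis, Hmgcs1, Idi1, Fdps, Fdft1, Sqle, Lss, Cyp51 and Dhcr7, and Insig1, a regulator of the same pathway that is not itself an enzyme. They were taken by symbol from the gene count table, where each symbol matched 1 row, so that they make up 9 of 55401 listed genes. All 9 passed the filter on low counts, as did 18971 genes in all. The choice of the genes used no measured value, but it was made with earlier results of these data known.

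The study asked how a single dose of the serotonergic psychedelic psilocybin changes gene expression in the hypothalamus and the prefrontal cortex (PFC, labelled frontal cortex). Chow-fed male C57BL/6J mice, an inbred laboratory strain, received a single study injection at 10 weeks of age, and were killed 3 h or 4 weeks later. It held 3 mg/kg psilocybin, or isotonic saline as vehicle. Sham injections of saline came on the days before, as the paper gives for all but its head-twitch study. The 32 mice gave 64 libraries, 8 for each combination of region, treatment and harvest. Mice harvested at 4 weeks were also older, so age and time since injection cannot be told apart, and the regions were extracted in different pools, so region and pool cannot be told apart either. Mice carried no transgene or deletion, and every mouse was injected.

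Cholesterol is built from acetyl-CoA through mevalonate, isoprenoid units, squalene and lanosterol. When sterols in the endoplasmic reticulum run low, the protein SCAP carries SREBP transcription factors to the Golgi, where they are cut and released to switch on the genes of the pathway. When sterols are plentiful, the Insig proteins hold SCAP back. Insig1 is itself a target of SREBP, so its mRNA follows the activity of the pathway. The brain makes its own cholesterol, since lipoproteins do not cross the blood-brain barrier, and oligodendrocytes and astrocytes are major producers.

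In the order of the pathway, Hmgcs1 (ENSMUSG00000093930.2, chr13:119690379-119708082, plus strand) encodes the cytosolic HMG-CoA synthase, an early enzyme of the pathway. Idi1 (ENSMUSG00000058258.14, chr13:8885501-8891358, plus strand) encodes the isomerase that interconverts the isoprenoid units, and Fdps (ENSMUSG00000059743.12, chr3:89093588-89101888, minus strand) encodes farnesyl diphosphate synthase, which joins them. Fdft1 (ENSMUSG00000021273.11, chr14:63145150-63179578, minus strand) encodes squalene synthase, the entry to the sterol branch. Sqle (ENSMUSG00000022351.14, chr15:59315077-59331192, plus strand) encodes squalene epoxidase, and Lss (ENSMUSG00000033105.12, chr10:76531588-76555479, plus strand) encodes lanosterol synthase, which closes the sterol rings. Cyp51 (ENSMUSG00000001467.5, chr5:4081145-4104343, minus strand) encodes the lanosterol demethylase, and Dhcr7 (ENSMUSG00000058454.15, chr7:143823145-143848409, plus strand) encodes the reductase that ends a branch of the route to cholesterol. Insig1 (ENSMUSG00000045294.11, chr5:28071363-28077051, plus strand) encodes the sterol sensor described above. Coordinates are those of the count table, on GRCm38.

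RefSeq promoter windows on GRCm38.p6, from 250 bases before a transcription start to 50 after it, were at hand for 6 of the 9 genes (Hmgcs1, Idi1, Lss, Cyp51, Dhcr7 and Insig1). The stretches before the counted transcript are shown for Insig1 and Lss, the genes whose levels differed between harvests, and for Hmgcs1 and Cyp51, whose levels varied with those of Sqle. Capitals mark matches on either strand to the sterol regulatory element core TCACNCCAC, to its looser form CACNCCA, to the NF-Y box CCAAT and to the GC box GGGCGG. They run 5′ to 3′ on the strand of the gene.
Insig1 (chr5:28071162-28071362, plus strand): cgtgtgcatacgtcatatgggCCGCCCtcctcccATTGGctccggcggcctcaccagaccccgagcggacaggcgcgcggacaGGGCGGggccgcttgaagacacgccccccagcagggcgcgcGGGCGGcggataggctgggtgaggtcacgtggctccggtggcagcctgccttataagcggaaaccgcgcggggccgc
Lss (chr10:76531355-76531587, plus strand): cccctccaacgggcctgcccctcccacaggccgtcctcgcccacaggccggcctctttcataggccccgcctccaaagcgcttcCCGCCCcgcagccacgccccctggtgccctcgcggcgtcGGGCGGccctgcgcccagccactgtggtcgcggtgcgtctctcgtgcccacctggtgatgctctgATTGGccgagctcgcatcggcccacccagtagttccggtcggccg
Hmgcs1 (chr13:119690101-119690350, plus strand): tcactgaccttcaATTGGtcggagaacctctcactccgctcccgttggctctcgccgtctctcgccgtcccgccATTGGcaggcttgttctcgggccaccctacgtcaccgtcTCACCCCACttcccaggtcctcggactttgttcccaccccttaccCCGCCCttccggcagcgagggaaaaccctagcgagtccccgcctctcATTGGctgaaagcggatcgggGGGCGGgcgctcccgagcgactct
Cyp51 (chr5:4104698-4104947, minus strand): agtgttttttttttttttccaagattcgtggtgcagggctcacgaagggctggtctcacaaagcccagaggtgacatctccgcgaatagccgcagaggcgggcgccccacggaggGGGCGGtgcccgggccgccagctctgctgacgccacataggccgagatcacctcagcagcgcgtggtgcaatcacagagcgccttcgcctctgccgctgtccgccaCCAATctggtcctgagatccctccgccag
The core of the sterol regulatory element was found in the window of Hmgcs1 alone among the 6 genes, as TCACCCCAC from 137 to 129 bases before the start, against 1.24% of 32851 RefSeq windows. The core match holds a match to the looser form within it. That looser form, present in 18.4% of windows, also matched in the window of Insig1, in bases that belong to the counted transcript and are not shown. The windows of Idi1, Lss, Cyp51 and Dhcr7 held neither form. NF-Y boxes (37.4% of windows) and GC boxes (35.7%) were found in all 4 stretches shown. These matches describe letters only, and the absence of a match says nothing about binding by SREBP.

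Of the 64 libraries, 62 had at least 1000000 counted reads and were used, with 8061033 to 70361839 counted reads and a median of 18287978.5. A hypothalamus library of the 3 h vehicle group (replicate 2) held 211111 reads and a PFC library of the 4 week psilocybin group (replicate 3) held 200066, and both were left out. Of the cortex markers, 5 of 5 were higher in the PFC than in the hypothalamus in each of 4 comparisons, and 8 of 8 hypothalamus markers were lower. The library that stands apart in the most of these genes, 4 of 9, is in the hypothalamus. Psilocybin replicate 5 of the hypothalamus at 4 weeks had 1.92 CPM (counts scaled by TMM to 1000000 reads a library) for Idi1, where the other 7 libraries of its group had at least 8.99 CPM. It had 38.8 CPM for Fdps against at most 14.7, 183 CPM for Fdft1 against at most 104, and 26.8 CPM for Lss against at least 47.3. It was sequenced to 27490537 counted reads and received the lowest quality weight in the weighted fit, 0.0276, with 0.12 for the next lowest. Its marker genes for oligodendrocyte precursors summed to 111 CPM against 188 to 213 CPM in the rest of its group, and its hypothalamus markers to 2696 CPM against 450 to 782 CPM. Because all groups share an estimate of the spread, this library also widens the errors in comparisons it does not enter, and values without it are given where they differ.

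**Figure D1:**
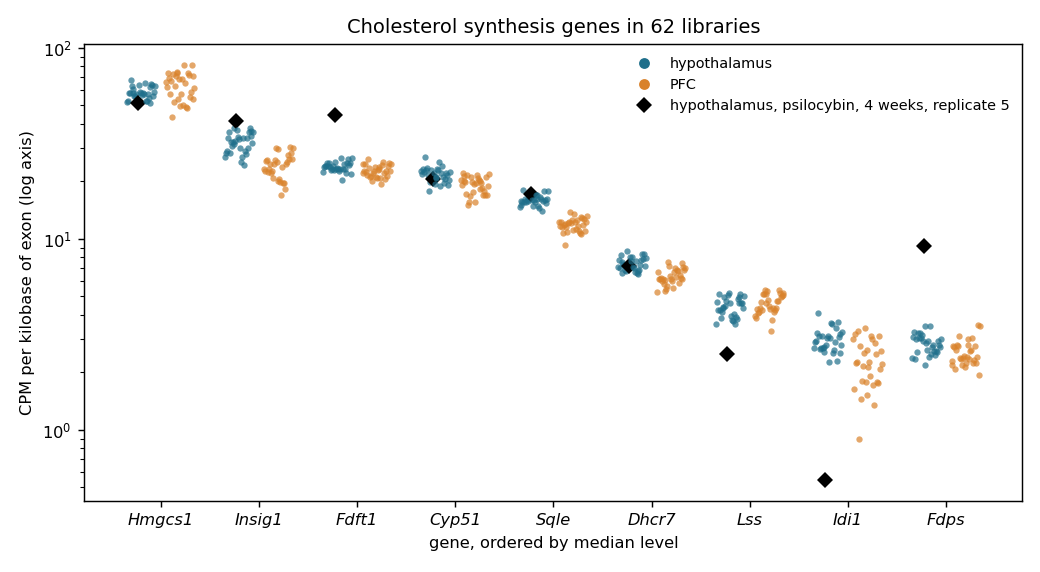
Level of each gene in every library, as CPM per kilobase of exon on a log axis, with hypothalamus and PFC side by side and a diamond for psilocybin replicate 5 of the hypothalamus at 4 weeks. Hmgcs1 had the highest level, with a median of 58.4 CPM per kilobase, and Fdps and Idi1 the lowest, with 2.67 and 2.69.

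All 9 genes were expressed in both regions, at levels that spread widely. Per kilobase of exon, as listed in the count table, the median over the 62 libraries was 58.4 CPM for Hmgcs1, 27.8 for Insig1, 23.2 for Fdft1 and 20.5 for Cyp51. It was 13.9 for Sqle, 6.86 for Dhcr7, 4.46 for Lss, 2.69 for Idi1 and 2.67 for Fdps. The order was the same in every library for Hmgcs1 over Insig1 and for the steps from Cyp51 to Sqle, Dhcr7, Lss and Idi1. Insig1 lay above Fdft1 in 50 of 62 libraries, with a mean log2 ratio of 0.23 (SD 0.26), and Fdft1 above Cyp51 in 58 (0.21, SD 0.19), so that these neighbours lie about as far apart as libraries differ. Idi1 lay above Fdps in 30 of 62 libraries (SD 0.67 on the log2 scale), and their levels did not differ beyond the spread. Exon length joins all transcripts of a gene, up to 10787 bases for Lss, so a gene with many transcript forms gets a lower value per kilobase. The span of Fdps overlaps another gene, Gm43738, by 7512 bases on its own strand, and the effect of this on its level is not known here. In bulk tissue, fewer cells of a type and less RNA per cell cannot be told apart in any of these levels. Hmgcs1 varied more in the PFC, where its coefficient of variation within groups was 14.2 to 20.6%, than in the hypothalamus, where it was 6.53 to 8.90%.

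The regions were compared within each treatment and harvest. The clearest differences were in Sqle, Insig1 and Cyp51, which were lower in the PFC than in the hypothalamus in all 4 comparisons, and in Dhcr7, which was lower in 3. Hmgcs1, at the start of the pathway, did not follow them. Of the 9 genes, 4 were called (Benjamini-Hochberg adjusted p under 0.05 over 18971 genes in edgeR's quasi-likelihood test) in vehicle mice at 3 h, against 54.9% of all genes tested, 4 in vehicle mice at 4 weeks, against 55.2%, 4 in psilocybin mice at 3 h, against 56.2%, and 7 in psilocybin mice at 4 weeks, against 58%. These calls were lower in the PFC, for which the shares of all genes were 25.8, 25.7, 26.8 and 29.4%, with 1 exception in psilocybin mice at 4 weeks, Lss.

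Sqle, squalene epoxidase, lay between 51.3 and 76.9 CPM in the PFC and between 77.2 and 99.8 CPM in the hypothalamus. In vehicle mice at 3 h it had 59.6, 63.8 and 74.9 CPM as lowest, median and highest in the PFC and 80.5, 89.7 and 94.2 CPM in the hypothalamus. The regions did not overlap within any treatment and harvest, which held for 27.8, 29.1, 26.4 and 22.4% of all genes in the same 4 comparisons. The log2 difference, PFC minus hypothalamus, was -0.43 (SE 0.06, adjusted p = 5.1e-09) and -0.41 (SE 0.06, 1.3e-08) in vehicle mice at 3 h and 4 weeks, and -0.47 (SE 0.06, 2.21e-10) and -0.40 (SE 0.06, 5.97e-08) in psilocybin mice.

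Insig1 had 52.5, 61.1 and 73.6 CPM as lowest, median and highest in the PFC of vehicle mice at 3 h and 75.4, 85.5 and 104.7 CPM in their hypothalamus. The log2 difference was -0.50 (SE 0.07, adjusted p = 1.67e-08) there and -0.35 (SE 0.07, 1.52e-05) in vehicle mice at 4 weeks. In psilocybin mice it was -0.36 (SE 0.07, 6.15e-06) at 3 h and -0.46 (SE 0.07, 9.85e-08) at 4 weeks. The regions overlapped in vehicle mice at 4 weeks alone, where 7 of 8 PFC libraries lay below all of the hypothalamus.

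Cyp51, the lanosterol demethylase, differed less, by -0.21 (SE 0.07, adjusted p = 0.00772) and -0.17 (SE 0.07, 0.0248) in vehicle mice at 3 h and 4 weeks and by -0.19 (SE 0.07, 0.00981) and -0.20 (SE 0.07, 0.00938) in psilocybin mice, with overlap in each. The call in vehicle mice at 4 weeks was lost without hypothalamus replicate 4 or 8 (adjusted p = 0.0526 and 0.051) or PFC replicate 6 (0.065). Dhcr7, the reductase near the end of the pathway, differed by -0.11 (SE 0.06, adjusted p = 0.12) and -0.21 (SE 0.06, 0.00188) in vehicle mice and by -0.28 (SE 0.06, 3.99e-05) and -0.30 (SE 0.06, 3.09e-05) in psilocybin mice. With DESeq2-type size factors the value at 3 h in vehicle mice passed as well (-0.14, adjusted p = 0.0413).

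Hmgcs1 was not called, with log2 differences of 0.05 (SE 0.10), 0.16 (SE 0.09), 0.13 (SE 0.09) and 0.20 (SE 0.10) in the same order, all above 0. A weighted voom fit in limma with the animal as a block, after the study's methods, called it higher in the PFC in vehicle mice at 4 weeks (0.18, adjusted p = 0.0132), beside 67.1% of all genes, and in psilocybin mice at 3 h (0.22, 0.00429), beside 66.2%, and 4 weeks (0.20, 0.0103), beside 65.1%. In vehicle mice at 3 h, where it called 62% of all genes, it gave Hmgcs1 -0.02 (adjusted p = 0.855). Idi1 was lower in the PFC of vehicle mice at 3 h (-0.49, SE 0.21, adjusted p = 0.0456), a call kept in 8 of 16 fits that left out 1 library and lost with the mouse as a block (adjusted p = 0.0568). In the other comparisons of regions its log2 difference lay between -0.37 and -0.20, none of them called, while the weighted voom fit called it lower at 4 weeks in vehicle (-0.38, adjusted p = 0.00671) and psilocybin mice (-0.31, 0.0402). Without the library that stands apart, Idi1 at 4 weeks had -0.37 (adjusted p = 0.0478) in vehicle mice and -0.36 (0.0726) in psilocybin mice.

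Fdps and Fdft1 were called lower, and Lss higher, in the PFC of psilocybin mice at 4 weeks alone in edgeR, the comparison that holds the library that stands apart. Their log2 differences were -0.63 (SE 0.15, adjusted p = 0.000371), -0.27 (SE 0.08, 0.00342) and 0.18 (SE 0.08, 0.0477). Without that library they were -0.31 (adjusted p = 0.0101), -0.12 (0.0403) and 0.09 (0.192). The call of Lss was also lost without hypothalamus replicate 1, 3 or 4 or PFC replicate 1, 2, 4, 6 or 7 (adjusted p between 0.0506 and 0.0993). DESeq2 (0.143), DESeq2-type size factors (0.144) and no filter on low counts (0.213) lost it too. In the other 3 comparisons Fdps lay between -0.17 and -0.04 and Fdft1 between -0.09 and -0.04, with no call, and Lss had 0.10 (SE 0.08) and 0.08 (SE 0.08) in vehicle mice and -0.03 (SE 0.08) in psilocybin mice at 3 h. The weighted voom fit called Lss higher in the PFC of vehicle mice at 3 h (0.13, adjusted p = 0.0472) and not in psilocybin mice at 4 weeks (0.07, 0.19).

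The myelin markers, of which oligodendrocytes are the source, were lower in the PFC in 10 of 10 genes in all 4 comparisons, where 25.8 to 29.4% of all genes were lower. They summed to 2428 to 7069 CPM in the PFC and 6339 to 11421 CPM in the hypothalamus, and none was at 0. Of the 8 astrocyte markers 2 to 4 were higher and 2 or 3 lower in the PFC, and they summed to 5839 to 11031 CPM there and to 3992 to 6321 CPM in the hypothalamus, with none at 0. The part of either cell type in the lower Sqle, Insig1, Cyp51 and Dhcr7 of the PFC was not tested.

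**Figure D2:**
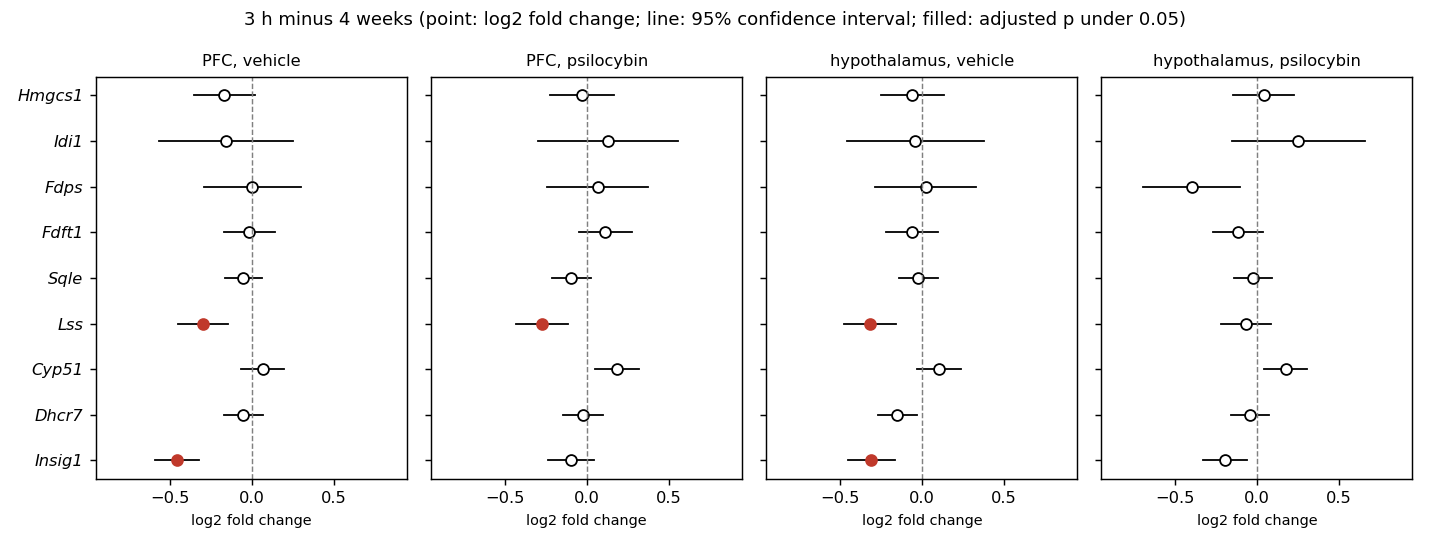
Log2 difference, 3 h minus 4 weeks after injection, of each gene in 4 combinations of region and treatment, with 95% confidence intervals and filled points for an adjusted p under 0.05. Insig1 and Lss carry all filled points, each to the left of 0.

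The harvests were compared within each region and treatment. Insig1 and Lss were lower 3 h after the injection than 4 weeks after it, and they were the sole members called. Insig1 was at 0.729 times and Lss at 0.814 times its level at 4 weeks in the PFC of vehicle mice. Both were also lower at 3 h in the hypothalamus of vehicle mice, and Lss in the PFC of psilocybin mice. Of the 9 genes, 2 were called in the PFC of vehicle mice, against 4.72% of all genes, 1 in the PFC of psilocybin mice, against 5.96%, 2 in the hypothalamus of vehicle mice, against 0.685%, and 0 in the hypothalamus of psilocybin mice, against 1.16%. All 5 calls were lower at 3 h, for which the shares of all genes were 2.34, 3.26, 0.163 and 0.416%. The harvests did not overlap in 2, 0, 1 and 0 of the 9 genes, against 0.432, 0.965, 0.859 and 0.348% of all genes.

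Insig1 had 52.5, 61.1 and 73.6 CPM as lowest, median and highest in the PFC of vehicle mice at 3 h and 76.5, 82.9 and 93.4 CPM at 4 weeks. Every library at 3 h lay below every library at 4 weeks. The log2 difference was -0.46 (SE 0.07, adjusted p = 8.14e-06), and it was called in 17 of 17 fits that left out 1 library, with adjusted p between 1.71e-06 and 6.47e-05. Within the extraction pools, each with 4 libraries a group, it was -0.42 and -0.50 in mean log2 CPM.

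In the hypothalamus of vehicle mice Insig1 had 75.4, 85.5 and 104.7 CPM at 3 h and 92.9, 109.0 and 117.2 CPM at 4 weeks, and 6 of 7 libraries at 3 h lay below all at 4 weeks. The log2 difference was -0.31 (SE 0.07, adjusted p = 0.0148), and -0.33 and -0.28 within the pools. The call was lost without vehicle replicate 3 (adjusted p = 0.0534) or 6 (0.0599) at 3 h, with all 64 libraries (0.325) and with no filter on low counts (0.197). After psilocybin neither region gave a call for Insig1. In the hypothalamus the difference was -0.19 (SE 0.07, 95% interval -0.33 to -0.06, adjusted p = 0.134), with 5 of 8 libraries at 3 h below all at 4 weeks. In the PFC it was -0.10 (SE 0.07, interval -0.24 to 0.05, adjusted p = 0.467), and the pools went opposite ways, 0.10 and -0.26 in mean log2 CPM. The psilocybin difference minus the vehicle difference was 0.36 in the PFC (SE 0.10, 95% interval 0.16 to 0.56, adjusted p = 1) and 0.11 in the hypothalamus (SE 0.10, interval -0.08 to 0.31, adjusted p = 0.926), so that the treatments were not shown to differ in this respect.

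Lss, lanosterol synthase, had 35.3, 46.1 and 48.0 CPM in the PFC of vehicle mice at 3 h and 50.9, 54.5 and 58.0 CPM at 4 weeks, with no overlap. The log2 difference was -0.30 (SE 0.08, adjusted p = 0.013), called in 17 of 17 fits that left out 1 library and lost with all 64 libraries (adjusted p = 0.108) or with no filter on low counts (0.0566). Lss in the PFC of psilocybin mice had 41.8, 45.4 and 50.2 CPM at 3 h and 49.98, 55.6 and 57.9 CPM at 4 weeks. There 7 of 8 libraries at 3 h lay below all at 4 weeks, and the log2 difference was -0.27 (SE 0.08, adjusted p = 0.0276). That call was lost without psilocybin replicate 1 at 3 h or replicate 1, 2, 4 or 7 at 4 weeks, with adjusted p up to 0.0715, and with no filter (0.124).

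In the hypothalamus of vehicle mice Lss had 38.7, 41.2 and 43.4 CPM at 3 h and 46.9, 51.1 and 55.4 CPM at 4 weeks. The harvests did not overlap. The log2 difference was -0.31 (SE 0.08, adjusted p = 0.0378), and -0.36 and -0.28 within the pools, without overlap in either. The call was kept in 4 of 16 fits that left out 1 library, in which the difference stayed between -0.33 and -0.30 and the adjusted p reached 0.112. It was also lost with all 64 libraries (0.352), with no filter (0.299), within the region alone (0.0876) and with the cage as a block (0.087). Of the 16 fits that left out 1 library, that without psilocybin replicate 5 at 4 weeks, which belongs to neither group, gave the smallest adjusted p, 0.000288. The same fit gave 0.000138 in the PFC of vehicle mice and 0.000714 in the PFC of psilocybin mice. In the hypothalamus of psilocybin mice, which holds that library, Lss had 38.7, 46.0 and 55.4 CPM at 3 h and 26.8, 50.3 and 56.3 CPM at 4 weeks. The harvests overlapped and the log2 difference was -0.07 (SE 0.08, adjusted p = 0.673), or -0.16 (0.228) without replicate 5 at 4 weeks. The weighted voom fit, which gives that library little weight, called it (-0.19, adjusted p = 0.0128).

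**Figure D3:**
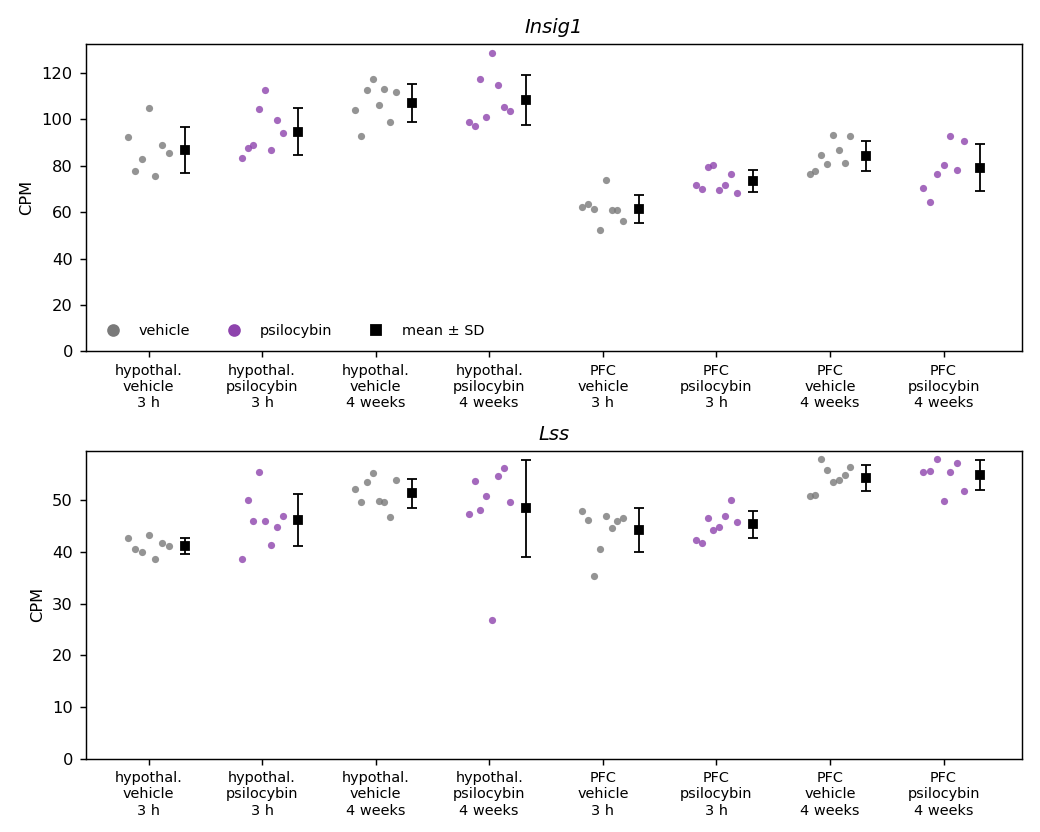
Insig1 and Lss in every library by group, in CPM, with the mean and SD of each group. In vehicle mice the libraries at 3 h lie below those at 4 weeks in both regions, with overlap for Insig1 in the hypothalamus, and Insig1 in the PFC at 3 h is lowest after vehicle.

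None of the other 7 genes was called between harvests. The weighted voom fit called 2 of the 9 genes in the PFC of vehicle mice, beside 5.98% of all genes, and 2 in psilocybin mice, beside 19.1%, and in the hypothalamus 3, beside 7.25%, and 1, beside 3.29%. Cyp51 was above 0 in all 4 comparisons, with log2 differences of 0.07 (SE 0.07) in the PFC and 0.11 (SE 0.07) in the hypothalamus of vehicle mice, and of 0.18 (SE 0.07, adjusted p = 0.0955) and 0.18 (SE 0.07, 0.157) in psilocybin mice. It passed in the PFC of psilocybin mice in the weighted voom fit (0.23, adjusted p = 0.0033) and without psilocybin replicate 7 at 3 h (0.22, 0.0315). Dhcr7 differed by -0.15 (SE 0.06, adjusted p = 0.422) in the hypothalamus of vehicle mice, a value that the weighted voom fit called (adjusted p = 0.0343). Hmgcs1 differed by -0.17 (SE 0.09, adjusted p = 0.345) in the PFC of vehicle mice and by -0.06 to 0.04 elsewhere. Sqle, which separated the regions, lay between -0.09 and -0.02 in the 4 comparisons of harvests. Fdps differed by -0.40 (SE 0.15, adjusted p = 0.157) in the hypothalamus of psilocybin mice and by -0.07 (0.884) without replicate 5. Elsewhere Fdps lay between 0.00 and 0.07. Idi1 lay between -0.16 (SE 0.21) in the PFC of vehicle mice and 0.25 (SE 0.20) in the hypothalamus of psilocybin mice, where it was 0.09 without replicate 5. Fdft1 lay between -0.12 (SE 0.08) in that comparison, 0.03 without replicate 5, and 0.11 (SE 0.08) in the PFC of psilocybin mice. Dhcr7 lay between -0.05 and -0.02 in the other 3 comparisons. The median over the 9 genes was -0.05 in the PFC and -0.06 in the hypothalamus of vehicle mice, and -0.02 and -0.04 in psilocybin mice, against medians over all genes of 0.00, 0.00, 0.01 and -0.03.

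Whether the difference between harvests itself differed between regions was tested within each treatment. It was called in 0 of the 9 genes in vehicle mice, against 0.0369% of all genes, and in 0 of the 9 in psilocybin mice, against 0.116%. At an unadjusted p under 0.05 the shares of all genes were 5.84 and 16.1%, with 0 and 2 of the 9 genes, and DESeq2 called 20 and 98 genes. The 2 were Fdps (0.46, SE 0.21, adjusted p = 0.275) and Fdft1 (0.23, SE 0.11, 0.298), which had 0.14 and 0.08 without replicate 5. For Insig1 in vehicle mice the PFC difference minus the hypothalamus difference was -0.15 (SE 0.10, 95% interval -0.35 to 0.05, adjusted p = 0.976), and for Lss it was 0.02 (SE 0.11, interval -0.20 to 0.24).

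Single markers of glial cells were also called between the harvests, where 4.72% of all genes were called in the PFC of vehicle mice and 5.96% in psilocybin mice. In the PFC of vehicle mice 1 of 5 oligodendrocyte precursor, 1 of 8 astrocyte and 1 of 6 microglia markers were higher at 3 h, and in the PFC of psilocybin mice 1, 3 and 1 were. The precursor markers summed to 175 to 251 CPM at 3 h and 150 to 202 CPM at 4 weeks in the PFC of vehicle mice, and the astrocyte markers to 6302 to 9725 and 5839 to 9458 CPM, with none at 0. In the hypothalamus of vehicle mice, where 0.685% of all genes were called, 1 of 5 precursor markers was higher at 3 h (208 to 233 CPM in sum against 176 to 223), and 0 of 8 astrocyte and 0 of 6 microglia markers were called. The myelin markers summed to medians of 8851 CPM at 3 h and 7953 CPM at 4 weeks in the hypothalamus of vehicle mice, and 9618 and 7879 CPM in psilocybin mice. In the PFC the medians were 3574 and 3946 CPM in vehicle mice and 4393 and 4423 CPM in psilocybin mice. The harvests overlapped in each of these sums. The part of these cells in the lower Insig1 and Lss was not tested.

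Psilocybin was compared with vehicle in each region at each harvest. None of the 9 genes was called in any of the 4 comparisons. The genes nearest to a call were Insig1 in the PFC at 3 h, where psilocybin mice had 1.20 times the level of vehicle mice, and Fdps in the hypothalamus at 4 weeks. The background was as low, with 0.0105% of all genes (2 genes) called in the PFC at 3 h and 0% in the PFC at 4 weeks, in the hypothalamus at 3 h and in the hypothalamus at 4 weeks. At an unadjusted p under 0.05 there were 1, 0, 1 and 1 of the 9 genes in this order, against 7.23, 2.4, 1.78 and 9.61% of all genes. DESeq2 called 9, 19, 0 and 13 of all genes (0.0475, 0.1, 0 and 0.0686%) and 0 of the 9. The treatments overlapped in all 9 genes in each comparison, and 0.0105, 0, 0.0474 and 0% of all genes were free of overlap.

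Insig1 in the PFC at 3 h had 68.4, 71.8 and 80.2 CPM as lowest, median and highest after psilocybin and 52.5, 61.1 and 73.6 CPM after vehicle. The groups overlapped, with 3 of 8 psilocybin libraries above all vehicle libraries. The log2 fold change was 0.26 (SE 0.07, 95% interval 0.12 to 0.40, adjusted p = 0.271 in edgeR), and the adjusted p lay between 0.117 and 0.585 when each library was left out. Within the pools it was 0.33, without overlap, and 0.19. The weighted voom fit called Insig1 (0.25, SE 0.08, adjusted p = 0.0393) and Hmgcs1 (0.26, SE 0.08, 0.0482) higher after psilocybin, beside 6.49% of all genes called, or 5.14% called higher. That fit used the 62 libraries, while the study left out a further library for its wound healing and immune genes that the sources used here do not name, so its inputs differ from the study's. In edgeR Hmgcs1 had 0.13 (SE 0.09, adjusted p = 0.813), with 200.6, 305.3 and 339.9 CPM after psilocybin and 221.9, 246.5 and 373.8 CPM after vehicle. The lowest of these, psilocybin replicate 7, carried a quality weight of 0.12. In the vehicle group replicates 3, 4, 5 and 8 carried 0.275, 0.323, 0.286 and 0.501, and the rest 0.605 to 1.45. The vehicle libraries of the PFC at 3 h serve in this comparison and in that of the harvests above, so that the higher Insig1 after psilocybin and the lower Insig1 at 3 h in vehicle mice are not independent.

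The log2 fold changes of the other members in the PFC at 3 h ran from -0.08 (SE 0.06) for Dhcr7 to 0.21 (SE 0.21) for Idi1, which had 0.42 (SE 0.17, adjusted p = 0.136) in the weighted voom fit, where Cyp51 had 0.13 against 0.06 in edgeR. In edgeR the median over the 9 genes was 0.05 against -0.01 over all genes. At 4 weeks 8 of 9 lay below 0, with a median of -0.08 against -0.01. Dhcr7 there had the smallest p (-0.11, SE 0.06, adjusted p = 1), and Insig1 had -0.10 (SE 0.07, interval -0.24 to 0.04). Fdps had -0.12, Idi1 and Fdft1 -0.08, Cyp51 -0.06, Hmgcs1 -0.01, Sqle 0.00 and Lss 0.01. Whether the response to psilocybin differed between 3 h and 4 weeks is the same test as that given for Insig1 with the harvests. In the PFC it called 0 of the 9 genes and 0% of all genes in edgeR, where 3.08% had an unadjusted p under 0.05, and DESeq2 called 4.

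In the hypothalamus at 3 h Lss had 38.7, 46.0 and 55.4 CPM after psilocybin and 38.7, 41.2 and 43.4 CPM after vehicle. The lowest values were alike, and 6 of 8 psilocybin libraries lay above all vehicle libraries. The log2 fold change was 0.16 (SE 0.08, interval 0.00 to 0.32, adjusted p = 1). Insig1 had 0.13 (SE 0.07, interval -0.01 to 0.27) and Dhcr7 0.09 (SE 0.06). Hmgcs1, Idi1, Fdps, Fdft1 and Cyp51 lay between 0.04 and 0.05, Sqle had -0.01, and 8 of 9 genes lay above 0 with a median of 0.05 against 0.00 over all genes. At 4 weeks Fdps had 9.23, 13.0 and 38.8 CPM after psilocybin and 10.4, 11.2 and 12.6 CPM after vehicle, with 5 of 8 psilocybin libraries above all vehicle libraries. Its log2 fold change was 0.47 (SE 0.15, adjusted p = 0.448), and 0.15 (adjusted p = 1) without psilocybin replicate 5, which had the highest value. Idi1 had -0.25 (SE 0.20), Fdft1 0.11 (SE 0.08) and Lss -0.09 (SE 0.08), which were -0.08, -0.04 and 0.00 without that library. Hmgcs1, Sqle, Cyp51, Dhcr7 and Insig1 lay between -0.06 and 0.02. The response of the PFC minus that of the hypothalamus at 3 h was called in 0 of the 9 genes and in 0% of all genes in edgeR (2.78% at an unadjusted p under 0.05), and the response at 3 h minus that at 4 weeks in the hypothalamus was called in 0 of the 9 and 0% of all genes as well (5.27% at an unadjusted p under 0.05). In the latter test Lss had 0.25 (SE 0.11, adjusted p = 0.904), and 0.16 (SE 0.08, adjusted p = 1) without replicate 5 at 4 weeks. DESeq2 called 0 genes in either.

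**Figure D4:**
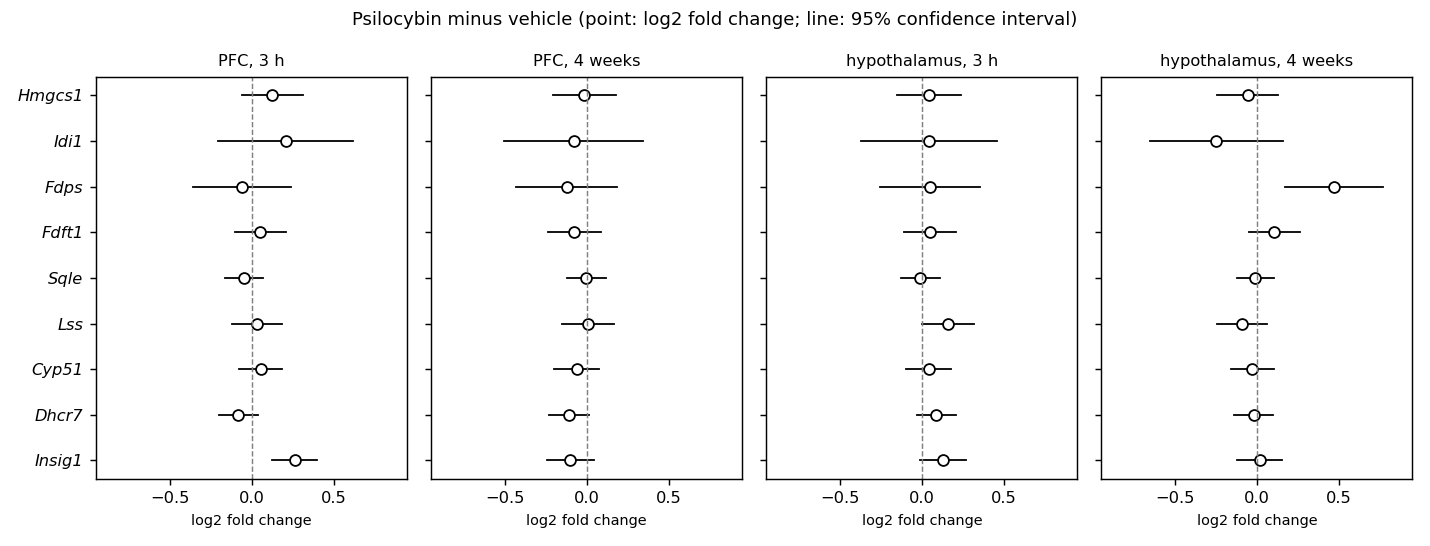
Log2 fold change of each gene, psilocybin over vehicle, with 95% confidence intervals in 4 combinations of region and harvest. Intervals lie clear of 0 for Insig1 in the PFC at 3 h, Lss in the hypothalamus at 3 h and Fdps in the hypothalamus at 4 weeks, and no adjusted p was under 0.05.

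The rest of the pathway was described with 5 further lists, which hold 14 other cholesterol synthesis enzymes, 11 genes of sterol sensing and SREBP processing, 9 of sterol uptake and transport within the cell, 10 of sterol efflux and turnover, and 11 of fatty acid synthesis, counting the genes that passed the filter. In the 4 comparisons of psilocybin with vehicle 0 genes of any list were called, where 0.0105% of all genes were called in the PFC at 3 h and 0% in the rest. The smallest p values belonged to Ebp, an isomerase of the sterol branch (0.31, SE 0.12, adjusted p = 0.448), Mylip, an E3 ubiquitin ligase (-0.20, SE 0.08, 0.448), and Apoe, the main apolipoprotein of the brain (0.48, SE 0.18, 0.448), each in the hypothalamus at 4 weeks.

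Between harvests, the calls described here were in genes of sterol uptake and transport. Stard4, a sterol carrier of the cytosol, had a mean of 33.9 CPM at 3 h and 44.5 CPM at 4 weeks in the PFC of vehicle mice (log2 difference -0.39, SE 0.10, adjusted p = 0.00899), with overlap. Mylip was the sole gene of the list called in the PFC of psilocybin mice, higher at 3 h (0.43, SE 0.08, adjusted p = 0.000445). The other 4 lists had 0 calls between harvests in any region or treatment, the 14 other enzymes of cholesterol synthesis among them, where 4.72 and 5.96% (PFC, vehicle and psilocybin) and 0.685 and 1.16% (hypothalamus) of all genes were called. Of these, Tm7sf2, a sterol reductase, came nearest, with -0.31 (SE 0.10, adjusted p = 0.0643) in the PFC of psilocybin mice.

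Between regions the lists held genes called in each direction. Of the 14 other enzymes, 2 were higher and 3 lower in the PFC of vehicle mice at 3 h, 2 and 3 at 4 weeks, and 2 and 5 and then 2 and 4 in psilocybin mice. These are 5, 5, 7 and 6 of 14, against 54.9, 55.2, 56.2 and 58% of all genes called in the same comparisons. Hsd17b7, a sterol ketoreductase, was higher in the PFC of vehicle mice at 3 h (log2 difference 0.50, SE 0.12, 0.000319), and Acat2, which makes acetoacetyl-CoA, was lower in psilocybin mice at 3 h (-0.41, SE 0.09, 9.11e-05). Of the 11 sensing genes Srebf1, which encodes an SREBP more tied to fatty acids, was lower by 1.09 in log2 terms in vehicle mice at 3 h, and by 1.02 to 1.28 in the other comparisons. Cyp46a1, the neuronal enzyme that clears cholesterol from the brain, was higher in the PFC in all 4 (0.97 to 1.17). Of the 11 fatty acid enzymes 7 or 8 were lower in the PFC in each comparison and 1 or 2 higher, where 25.8 to 29.4% of all genes were lower, with Elovl6, a fatty acid elongase, at -0.77 to -0.74 and Acly, which supplies acetyl-CoA, at -0.55 to -0.50.

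**Figure D5:**
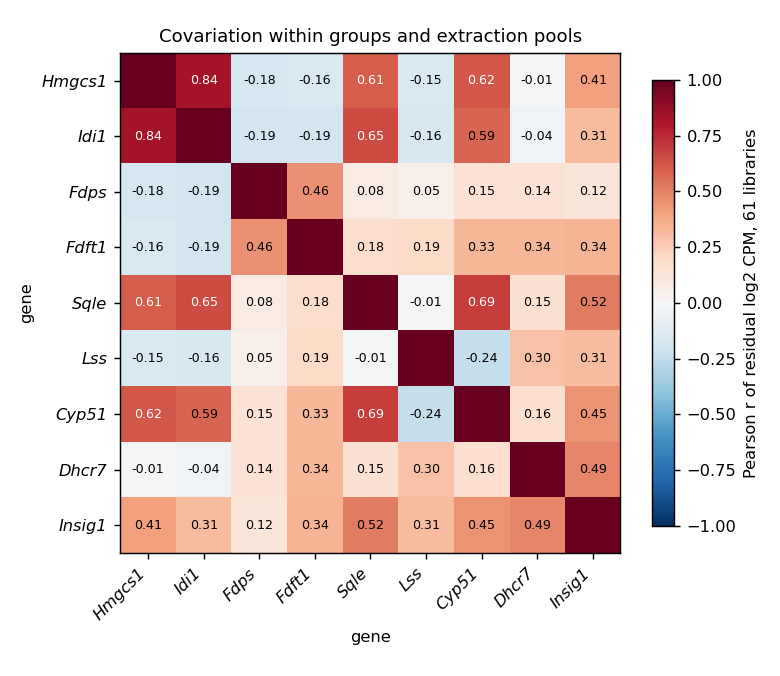
Pearson correlation between the genes over 61 libraries, from log2 CPM after the means of group and extraction pool were removed. The highest value is that of Hmgcs1 with Idi1, 0.84, and the lowest that of Lss with Cyp51, -0.24.

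Within groups, some of the genes rose and fell together from library to library. This was measured as Pearson correlation of log2 CPM after removal of group and extraction pool, which describes libraries that share depth, dissection and RNA quality with every other gene. Over 61 libraries, without psilocybin replicate 5 of the hypothalamus at 4 weeks, 26 of 36 pairs of members were above 0, against 49.7% of all pairs of genes, and the median was 0.18. Hmgcs1 and Idi1 had the highest value, 0.84. Insig1, Sqle and Cyp51 followed the mean of the other members most closely, with 0.69, 0.67 and 0.63, ahead of Hmgcs1 (0.44), Idi1 (0.40), Dhcr7 (0.33) and Fdft1 (0.32). Fdps (0.13) and Lss (0.06) did so least. Of the pairs with Lss, that with Insig1 had the highest value, 0.31. The regions are given side by side, and their difference was not tested. In the hypothalamus all 36 pairs were above 0, from 0.04 to 0.77 with a median of 0.47 over 30 libraries. In the PFC 21 of 36 were, from -0.55 to 0.87 with a median of 0.06 over 31 libraries. These are 100 and 58.3% of the pairs, against 49.9% of all pairs of genes in each region. With replicate 5 included, the hypothalamus gave 0.88 for Fdps with Fdft1 and -0.76 for Idi1 with Fdps, against 0.49 and 0.06 without it.

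The PFC and the hypothalamus of the same mouse could be set side by side in 30 mice. Within groups, Dhcr7 (0.43), Lss (0.39), Cyp51 (0.38) and Insig1 (0.35) correlated between the regions, against a median of 0.02 over all genes. Without the mouse of replicate 5 the values over 29 mice were 0.41, 0.26, 0.40 and 0.37. Sqle had 0.15, and the others lay between -0.06 and 0.11 over 30 mice and between 0.08 and 0.20 without that mouse. The regions of a mouse share the animal, its cage and the day of harvest.

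Among all other genes tested, Msmo1 was the most like the mean of the members over 62 libraries, with r = 0.71 and Spearman's rho = 0.76. Without the 2 libraries farthest from the median of the members' mean, vehicle replicates 5 and 6 of the hypothalamus at 3 h, r was 0.69. Within the regions r was 0.73 in the PFC and 0.70 in the hypothalamus. Psilocybin replicate 5 of the hypothalamus at 4 weeks was kept in this paragraph, in the values over 62 libraries and over the hypothalamus. Msmo1 encodes a sterol methyl oxidase that acts between Cyp51 and Dhcr7. Idh1, which makes NADPH in the cytosol, came next with 0.58, and then Ppm1d (0.53), Fuca2 (0.52), Gm7389 (0.50), Msantd4, Zfp655, Xrcc5, Mcl1 and Rraga (each 0.49). Of the cell type marker lists, that of the endothelium had -0.34 with the members' mean over 62 libraries (-0.47 in the PFC and -0.31 in the hypothalamus), and the oligodendrocyte and myelin markers had 0.26 (0.51 and -0.12). The striatum markers had -0.10 (0.24 and -0.52).

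Some reads may belong to neighbours that lie on top of these genes. As gene spans, introns included, Fdft1 overlaps Ctsb by 774 bases and Cyp51 overlaps Akap9 by 166, on opposite strands. Ctsb had 854186 counts in all libraries together and Akap9 had 138166. Lss overlaps 4930483K19Rik, with 151 counts, Hmgcs1 overlaps Gm48342, with 343, and Idi1 overlaps Gm48574, with 21, again on opposite strands. Fdps overlaps Gm43738 by 7512 bases and Gm22935 by 104 on its own strand, and these had 9 and 63 counts. The library kit keeps the strand, but the sources used here do not say clearly how the counting treated it, so these counts are uncertain to the extent of the overlap.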

How the data were processed

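Gene expression was measured by paired-end mRNA sequencing (TruSeq Stranded mRNA) of hypothalamus and PFC. The deposited values are raw counts of reads per gene, which the authors made with bcl2fastq 2.20.0, STAR 2.7.2b on the GRCm38 primary assembly with GENCODE vM25, and featureCounts 1.6.2. No normalization was applied before deposit, and every column of values matched a labelled sample.

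Groups and cages were taken from the labels. The 62 libraries with at least 1000000 counts entered a single edgeR 4.0.16 quasi-likelihood fit (R 4.3.3) with TMM scaling, a filter on low counts by group (minimum count 10) and terms for group and extraction pool, as in the study's model. P-values were adjusted by Benjamini-Hochberg over 18971 genes, with calls at an adjusted p under 0.05. SE is the fold change over the root of F, and intervals cover 95%. Alternatives were limma 3.58.1 (weighted voom, animal block), DESeq2 1.42.0, other scaling, no filter, no pool term, a replicate block (the cage within a region, the mouse between regions), 1 region only, all 64 libraries and each library left out. The fits were tested on simulated data. Of the gene IDs, 55141 matched a symbol by ID without version.

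The members and gene lists were chosen with earlier results of these data known. All 9 members were described in every comparison within a region or between regions, by value or by range, and fewer in tests of a difference between comparisons. From each other list it draws on the called genes with the smallest p, at most 3 in a comparison, or the gene with the smallest p where none was called, and it names the 10 genes most like the members' mean. Values in other comparisons are given for some of the genes once named, and not for others. The replicate number is the cage, which the labels share between groups. Deviations from group means correlated between cage mates by 0.07 on average in the hypothalamus and 0.06 in the PFC, and by -0.02 and -0.04 once the extraction pool was removed. Samples of the same mouse correlated between regions by 0.07, against 0.00 for different mice. Gene by gene the regions of a mouse correlated by 0.35 to 0.43 for Insig1, Cyp51, Lss and Dhcr7, and by -0.06 to 0.15 for the other members. The main fit does not model the mouse, while the replicate block does so between regions. No libraries of a group were alike within sampling noise (210 pairs). Mice of a cage are separate animals, so p-values measure the spread between animals. Results for some genes of the further lists are not reported here.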

Additional observations from a re-analysis of the deposited data

Results flagged for a closer look

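Of 72 combinations of gene and group, 7 held a library far from the rest of its group by Dixon's test, where chance gives about 1 in 20. Psilocybin replicate 5 of the hypothalamus at 4 weeks accounted for 4 of them. It was lowest for Idi1 at 1.92 CPM, with the next library at 8.99 CPM, and lowest for Lss at 26.8 CPM, with the next at 47.3. It was highest for Fdps at 38.8 CPM, with the next at 14.7, and highest for Fdft1 at 183 CPM, with the next at 104. Psilocybin replicate 5 of the hypothalamus at 3 h was highest for Idi1, at 14.3 CPM with the next at 11.3, and for Cyp51, at 118 CPM with the next at 103. Psilocybin replicate 1 of the PFC at 4 weeks was highest for Fdps, at 13 CPM with the next at 10.3. What sets these libraries apart was not tested.

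In the libraries left out for low depth, Lss in psilocybin replicate 3 of the PFC at 4 weeks came to 120 CPM, above the highest vehicle library of the PFC at 58 CPM. That value rests on 24 counts. The other 8 genes had 0 to 4 counts in that library and lay below the lowest vehicle library of the PFC, among them Hmgcs1 with 3 counts and Insig1 with 0. In vehicle replicate 2 of the hypothalamus at 3 h, Insig1 came to 142 CPM (30 counts) and Lss to 61.6 CPM (13 counts). The highest kept vehicle libraries of the hypothalamus had 117 and 55.4 CPM. Hmgcs1 (70 counts) and Idi1 (3) also lay above all of these. Fdps (0), Fdft1 (17) and Dhcr7 (6) lay below all of them, and Sqle and Cyp51 within their range.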

How the results depend on the processing

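No member reversed its direction in a call. The number of members called between harvests moved with the processing. In the PFC of vehicle mice it was 2, and 1, Insig1, with all 64 libraries or with no filter on low counts. In the PFC of psilocybin mice it was 1, 0 with no filter, and 2 in the weighted voom fit. In the hypothalamus of vehicle mice it was 2, 0 with all 64 libraries or with no filter, 1 with the region of the comparison alone, and 3 in the weighted voom fit. In the hypothalamus of psilocybin mice it was 0, and 1 in the weighted voom fit. For psilocybin against vehicle in the PFC at 3 h it was 0, and 2 in the weighted voom fit. Between regions it was 4 in vehicle mice at 3 h, 3 with no pool term or with the replicate block, and 5 with DESeq2, DESeq2-type size factors or weighted voom. In vehicle mice at 4 weeks it was 4, 3 with all 64 libraries and 6 in the weighted voom fit. In psilocybin mice it was 4 at 3 h, and 5 in the weighted voom fit. At 4 weeks these mice gave 7, 6 with DESeq2, DESeq2-type size factors or no filter, and 8 in the weighted voom fit. The cause of these changes was not tested.

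With the replicate block (the cage within a region, the mouse between regions), the number in the hypothalamus of vehicle mice was 1, since Lss had -0.31 with an adjusted p of 0.087, and Idi1 between regions in vehicle mice at 3 h had an adjusted p of 0.0568. The block changed no other call of a member.

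When each library was left out, the members called between harvests numbered 2 to 2 in the PFC and 0 to 2 in the hypothalamus of vehicle mice, and 0 to 2 and 0 to 0 in psilocybin mice. Between regions they numbered 3 to 4 and 3 to 5 in vehicle mice at 3 h and 4 weeks, and 4 to 4 and 6 to 7 in psilocybin mice. No fit that left out a library called a member for psilocybin against vehicle. Over all genes the count between harvests ran from 480 to 1571 and 67 to 225 in vehicle mice (PFC, hypothalamus) and 706 to 2143 and 131 to 368 in psilocybin mice when each library was left out. In the fit of the report it was 896 between harvests in the PFC of vehicle mice, 425 with no filter and 521 with all 64 libraries, and 1131 in psilocybin mice, 552 with no filter and 3614 in the weighted voom fit. In the hypothalamus it was 130 in vehicle mice, 53 with all 64 libraries, 60 with no filter and 1375 in the weighted voom fit, and 220 in psilocybin mice, 96 with all 64 libraries, 448 by DESeq2 and 624 in the weighted voom fit. For psilocybin in the PFC at 3 h it was 2, 9 by DESeq2 and 1232 in the weighted voom fit. In the 62 libraries the lowest count of a member was 46 reads, for Idi1, so that depth limits Idi1 and Fdps most.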
